A study of Mus musculus with 24 samples.

Results

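Water leaves the tubule fluid of the kidney through aquaporins, channel proteins of the cell membrane, and the hormone vasopressin sets how much of it leaves in the collecting duct. Vasopressin binds the V2 receptor encoded by Avpr2 on the principal cells of the collecting duct, cyclic AMP rises, and the channel AQP2 moves to the apical membrane, while AQP3 and AQP4 let the water out on the basolateral side. Upstream, AQP1 carries the bulk of the water taken up by the proximal tubule, AQP7 carries glycerol in the last proximal segment, and AQP11 is an intracellular channel of proximal tubule cells whose loss gives cystic kidneys in mice. These 7 genes (Avpr2, Aqp1, Aqp2, Aqp3, Aqp4, Aqp7 and Aqp11) were chosen by symbol, and all 7 were found among the 16921 genes of the count table.

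The RNA came from the kidney cortex of male C57BL6/J mice aged 22 months, in 4 groups of 6 mice and 1 library each. FGF21 KO mice on low protein (KO LP), FGF21 KO mice on normal protein (KO NP), WT mice on low protein (WT LP) and WT mice on normal protein (WT NP) received their diet from 3 months of age. Casein made up 5% of the LP diet and 20% of the NP diet, and food was not restricted. FGF21 is a hormone that the liver releases when protein is scarce, and how the knockout allele was made is not given in the sources used here. The series asked what a long-term low protein diet does to the aged kidney with and without FGF21.

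Each library held 8469102 to 21063652 counted reads, and the smallest was KO LP mouse 1. KO LP libraries held 8469102 to 14142259 reads and KO NP libraries 10731617 to 16290522, against 15163840 to 18430124 in WT LP libraries and 10576431 to 21063652 in WT NP libraries. Fgf21 itself is not analysed here, so the knockout was not checked from its own reads. All 12 markers of proximal segments 1 and 2 were detected in every library, and so were the 8 medulla and thin limb markers with a row; the cortex label itself was not tested. Mouse numbers only name the libraries. The labels do not say which mice shared a litter or cage, or whether libraries were made in batches. In bulk cortex, fewer cells of a type and less RNA per cell cannot be told apart.

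In KO kidneys all 7 genes averaged lower on LP than on NP, Aqp2 only at 87.9 against 88.4 CPM and with a log2 fold of 0.00034 under a stricter low-count filter. The decrease passed the test for Avpr2 and Aqp11. Mitochondrial transcripts took 18.5 to 26.3% of counts in KO LP and 26.4 to 30.5% in KO NP libraries, without overlap, and 24.2 to 27.2% in WT LP and 21.8 to 27.2% in WT NP libraries; their part in the differences was not tested. On LP, Aqp4 and Aqp7 were lower in KO than in WT kidneys, and Aqp7 was the gene whose 6 KO LP values lay below all 6 WT LP values. In WT kidneys 0 of the 7 genes changed with diet at an adjusted p under 0.05, beside 0% of all genes tested. No gene showed a diet effect that differed between the genotypes by the test of that difference. Levels are given as CPM (counts per 1000000 reads, with library totals scaled by edgeR's TMM factors), and the test was edgeR's quasi-likelihood test with p-values adjusted by Benjamini-Hochberg over all 15165 genes tested.

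**Figure D1:**
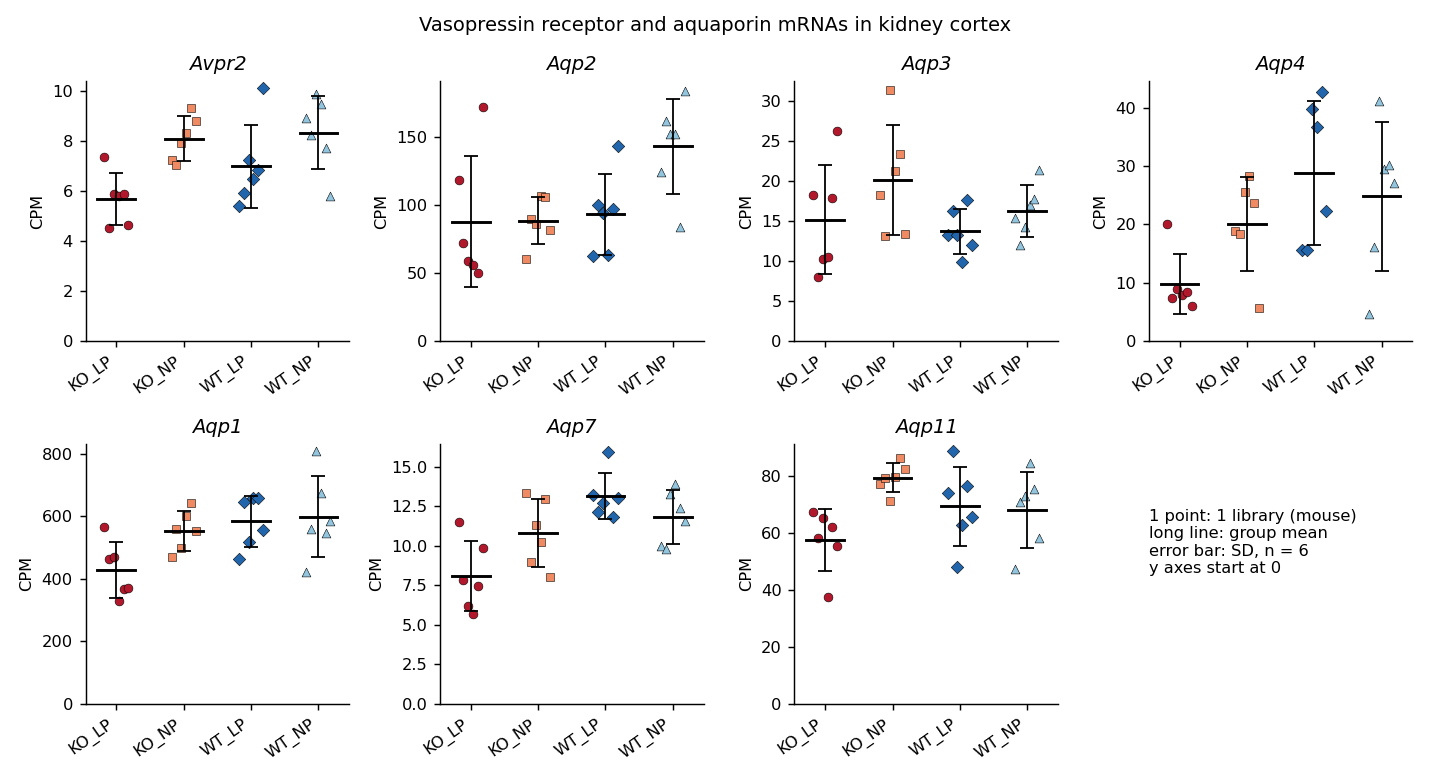
CPM of each of the 7 genes in each of the 24 libraries, 1 point per mouse, with the group mean (long line) and SD (error bar, n = 6) for KO LP, KO NP, WT LP and WT NP mice. Aqp11 points of KO LP mice lie below all those of KO NP mice, and Aqp7 points of KO LP mice lie below all those of WT LP mice.

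Avpr2, the V2 receptor, was read at 60 to 193 counts per library. Its level was 4.53 to 7.36 CPM in KO LP mice, with a median of 5.84 CPM, against 7.02 to 9.30 CPM in KO NP mice, with a median of 8.10 CPM. Of the KO LP mice, 5 lay below every KO NP mouse, and the groups overlapped through KO LP mouse 1. Avpr2 fell by 0.52 on the log2 scale with LP in KO kidneys (SE 0.15, edgeR adjusted p = 0.0415). The call was lost when any of 9 libraries was left out (KO LP mice 2, 4, 5 and 6 and KO NP mice 1, 3, 4, 5 and 6), with edgeR adjusted p up to 0.0932. In WT kidneys the level was 5.39 to 10.1 CPM on LP (median 6.64 CPM) and 5.79 to 9.87 CPM on NP (median 8.57 CPM). These WT ranges covered almost the same span, and the log2 fold of -0.25 (SE 0.15) had an unadjusted p of 0.0946 and an edgeR adjusted p of 1.0. The diet effect in KO minus that in WT was -0.26 on the log2 scale (95% interval -0.68 to 0.15, edgeR adjusted p = 0.546). Averaged over both genotypes, LP gave Avpr2 a log2 fold of -0.39 (SE 0.10) that did not pass the edgeR test (adjusted p = 0.0870) and did pass with DESeq2 (adjusted p = 0.0254) and with limma voom with quality weights (adjusted p = 0.0386). Between genotypes, Avpr2 had a log2 fold of -0.31 on LP (edgeR adjusted p = 0.231) and -0.048 on NP (edgeR adjusted p = 0.919).

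The Avpr2 gene lies on chromosome X of GRCm38, from 73892102 to 73895502 on the plus strand. On the minus strand, Arhgap4 shares 2347 of the 2886 exonic bases of Avpr2, none of them within the last 500 bases, near where QuantSeq reads from the 3′ end of transcripts would fall. L1cam, a cell adhesion gene also on the minus strand, runs from 73853778 to 73896105 and so spans the whole of Avpr2. Exonic bases shared with L1cam are not given here. Whether strand was used in counting is not given in the sources used here, so reads of Avpr2 and of these genes may not be fully separated. Arhgap4 averaged 3.40 ± 1.68 CPM in KO LP and 2.07 ± 0.58 CPM in KO NP mice (SD, n = 6 each), and its log2 fold of 0.73 had the sign opposite to that of Avpr2 (edgeR adjusted p = 0.133).

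Aqp2, the vasopressin-gated water channel of the principal cell, lies on chromosome 15 of GRCm38 (99579055 to 99584547, plus strand) and had its highest group median in WT NP kidneys. It ranged from 50.4 to 172 CPM in KO LP mice (median 65.4 CPM) and from 60.5 to 107 CPM in KO NP mice (median 87.8 CPM). WT LP mice had 62.6 to 144 CPM (median 95.4 CPM) and WT NP mice 84.1 to 184 CPM (median 152 CPM). KO LP mice spread most, with mice 6 and 1 above every KO NP mouse at 172 and 119 CPM and 3 mice below every KO NP mouse. The log2 fold of Aqp2 with LP in KO kidneys was -0.011 (95% interval -0.54 to 0.52), and -0.32 without KO LP mouse 6. In WT kidneys the LP fold was -0.61 (SE 0.27, unadjusted p = 0.0319, edgeR adjusted p = 1.0), with 5 of 6 WT LP mice below the WT NP mean. On NP the KO fold was -0.69 (SE 0.27, unadjusted p = 0.0171, edgeR adjusted p = 0.272), with 6 of 6 KO NP mice below the WT NP mean. Neither passed adjustment. Summed levels of medulla and thin limb markers also stood lower in KO NP mice, at 164.5 to 300.5 CPM against 307 to 545 CPM in WT NP mice, without overlap. Of these markers 2 of 8 were called lower on NP, Cryab and Slc5a3. They averaged 81.3 and 86.8 CPM in KO NP and 153 and 171 CPM in WT NP mice. As mean log2(CPM + 1) over the list the groups overlapped, at 3.20 to 4.08 in KO NP and 3.88 to 4.37 in WT NP mice. WT LP mice had a summed level of 236 to 395 CPM. The part of the medulla and thin limb markers in the Aqp2 values was not tested. The diet effects differed by 0.60 between KO and WT (95% interval -0.14 to 1.35, edgeR adjusted p = 0.438).

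Part of the Aqp2 promoter is shown because cyclic AMP is known to act on this gene through a cyclic AMP response element and GATA factors through their own motif. The 250 bases before the RefSeq start lie at chr15:99578806-99579055 (GRCm38.p6, plus strand). Capitals mark CGTCA, the reverse complement of the response element core TGACG, 211 bases before the start, and TTATCT, the reverse complement of the GATA motif AGATAA, 202 bases before it.
Aqp2 promoter: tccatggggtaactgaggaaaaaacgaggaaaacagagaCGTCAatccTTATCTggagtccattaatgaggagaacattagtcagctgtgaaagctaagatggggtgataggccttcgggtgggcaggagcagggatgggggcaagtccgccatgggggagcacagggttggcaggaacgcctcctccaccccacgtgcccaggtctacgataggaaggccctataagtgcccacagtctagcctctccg
Searched on both strands, the core TGACG occurs in 17.8% and AGATAA in 9.99% of 32851 RefSeq promoter windows of this length. The full element TGACGTCA, which contains the core, occurs in 1.55% of them and GTTAAT, a motif of the proximal tubule factor HNF1, in 6.43%. Neither was found in the Aqp2 window.

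Aqp3 and Aqp4 encode the basolateral exits of the principal cell, and AQP4 is in mice also found in the last proximal segment. Aqp3 lies on chromosome 4 (GRCm38, 41092722 to 41098183, minus strand). Aqp3 had 7.98 to 26.3 CPM in KO LP mice (median 14.2 CPM), 13.2 to 31.4 CPM in KO NP mice (median 19.8 CPM), 9.90 to 17.6 CPM in WT LP mice (median 13.3 CPM) and 11.997 to 21.4 CPM in WT NP mice (median 16.2 CPM). All 4 ranges overlapped. Its log2 fold with LP was -0.42 in KO (edgeR adjusted p = 0.278) and -0.25 in WT kidneys (edgeR adjusted p = 1.0), and its KO folds were 0.14 on LP and 0.31 on NP (edgeR adjusted p = 0.788 and 0.632). Aqp3 was the gene of the set with KO folds above 0 on both diets, though limma voom gave -0.12 on LP, and neither passed the test.

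Aqp4, on chromosome 18 (GRCm38, 15389496 to 15410982, minus strand), varied most between mice among the 7 genes, by 9.31-fold from the lowest to the highest library. Its level was 5.95 to 20.1 CPM in KO LP mice (median 8.20 CPM), against 15.6 to 42.7 CPM in WT LP mice (median 29.5 CPM). Of the KO LP mice, 5 lay between 5.95 and 8.94 CPM, below every WT LP mouse, and KO LP mouse 1 alone overlapped them at 20.1 CPM. Aqp4 fell by 1.59 on the log2 scale in KO against WT kidneys on LP (SE 0.43, edgeR adjusted p = 0.0444). The call was lost when any of 15 libraries was left out (KO LP mice 2 to 6, KO NP mice 1 and 5, WT LP mice 1, 3, 4, 5 and 6, and WT NP mice 4 to 6), with edgeR adjusted p up to 0.103. On NP, KO mice had 5.73 to 28.2 CPM (median 21.3 CPM) and WT mice 4.58 to 41.2 CPM (median 28.3 CPM), overlapping ranges in which 3 WT NP mice lay above every KO NP mouse (log2 fold -0.29, edgeR adjusted p = 0.798). With LP, Aqp4 had a log2 fold of -1.07 in KO (SE 0.43, edgeR adjusted p = 0.108, and -1.38 with adjusted p = 0.0394 without KO LP mouse 1) and 0.22 in WT kidneys (SE 0.40, edgeR adjusted p = 1.0). The difference of these effects was -1.30 (95% interval -2.45 to -0.15, unadjusted p = 0.0369, edgeR adjusted p = 0.287).

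Aqp1, the water channel of the proximal tubule and the thin descending limb, lies on chromosome 6 (GRCm38, 55336432 to 55348555, plus strand) and was read at 4620 to 11703 counts per library. Its level was 329 to 566 CPM in KO LP mice (median 417 CPM), 469 to 642 CPM in KO NP mice (median 555 CPM), 463 to 658 CPM in WT LP mice (median 601 CPM) and 420 to 808 CPM in WT NP mice (median 572 CPM). The other 3 groups overlapped widely with one another, and 4 of 6 KO LP mice lay below every KO NP mouse. Neither the log2 fold of -0.37 with LP in KO kidneys (SE 0.14, edgeR adjusted p = 0.0909) nor that of -0.45 for KO on LP (SE 0.14, edgeR adjusted p = 0.0775) passed the test. Without KO LP mouse 1, both passed, with log2 folds of -0.47 and -0.55 (edgeR adjusted p = 0.0311 and 0.0288). With DESeq2 the fold for KO on LP passed (-0.45, adjusted p = 0.0373), and it passed in the edgeR test without WT NP mouse 1.

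Aqp7, the aquaglyceroporin of the last proximal segment, was lower in KO than in WT kidneys on LP in every mouse. It lies on chromosome 4 (GRCm38, 41033074 to 41048139, minus strand). Its level was 5.68 to 11.5 CPM in KO LP mice (median 7.66 CPM), against 11.8 to 16.0 CPM in WT LP mice (median 12.9 CPM). The groups did not overlap, as for 1.19% of all genes in this direction. Aqp7 fell by 0.71 on the log2 scale (SE 0.15, edgeR adjusted p = 0.0122). On NP the 2 genotypes overlapped, with 7.999 to 13.4 CPM in KO mice (median 10.8 CPM) and 9.82 to 13.9 CPM in WT mice (median 11.99 CPM), and the log2 fold was -0.13 (edgeR adjusted p = 0.758). Averaged over both diets, Aqp7 fell by 0.42 in KO against WT kidneys (SE 0.11, edgeR adjusted p = 0.0256). With LP its log2 fold was -0.43 in KO (SE 0.15, edgeR adjusted p = 0.0761) and 0.15 in WT kidneys (SE 0.15, edgeR adjusted p = 1.0). The KO value passed without KO LP mouse 1 (edgeR adjusted p = 0.0225), with DESeq2 (adjusted p = 0.0440) and with limma voom (adjusted p = 0.0256). The difference of these effects was -0.59 (95% interval -1.01 to -0.17, unadjusted p = 0.0111, edgeR adjusted p = 0.227). Both Aqp7 decreases kept an adjusted p under 0.05 when each of the 24 libraries was left out in turn, up to 0.0370 on LP and 0.0494 averaged over diets.

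The promoter of Aqp7 is shown as that of the gene with this most stable call. The 250 bases before the upstream of its 2 RefSeq starts lie at chr4:41048137-41048386 (GRCm38.p6, minus strand). Capitals mark AGATAA, the GATA motif, 132 bases before the start.
Aqp7 promoter: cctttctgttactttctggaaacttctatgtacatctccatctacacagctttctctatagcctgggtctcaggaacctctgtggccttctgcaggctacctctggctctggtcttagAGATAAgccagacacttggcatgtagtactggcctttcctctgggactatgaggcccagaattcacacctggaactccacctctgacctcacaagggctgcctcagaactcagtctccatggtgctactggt
None of the other 3 motifs was found in this window. The second Aqp7 window and those of Avpr2, Aqp1, Aqp3 and Aqp11 held none of the motifs. RefSeq windows were matched for 6 of the 7 genes, and Aqp4 had none.

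Aqp11, the intracellular channel of proximal tubule cells, lies on chromosome 7 (GRCm38, 97724006 to 97738289, minus strand), 52.1 Mb from Fgf21 on the same chromosome. Its level was 37.3 to 67.4 CPM in KO LP mice (median 60.2 CPM), against 71.3 to 86.4 CPM in KO NP mice (median 79.4 CPM). All 6 KO LP mice lay below all 6 KO NP mice, as for 2.06% of all genes in this direction. Aqp11 fell by 0.46 on the log2 scale with LP in KO kidneys (SE 0.14, edgeR adjusted p = 0.0491). The call was kept without KO LP mouse 1 or 3, WT LP mouse 2 or 3 or WT NP mouse 1 or 4, and lost without any 1 of the other 18 libraries, with edgeR adjusted p up to 0.131. WT LP mice had 48.0 to 88.7 CPM (median 69.9 CPM) and WT NP mice 47.2 to 84.5 CPM (median 71.7 CPM). KO LP mouse 4, at 37.3 CPM, lay below all 12 WT mice, and the other KO mice lay within the WT span. The LP fold in WT kidneys was 0.024 (95% interval -0.25 to 0.30), and the difference of the effects was -0.49 (95% interval -0.88 to -0.093, unadjusted p = 0.0231, edgeR adjusted p = 0.254). KO folds were -0.27 on LP and 0.22 on NP (edgeR adjusted p = 0.286 and 0.545).

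**Figure D2:**
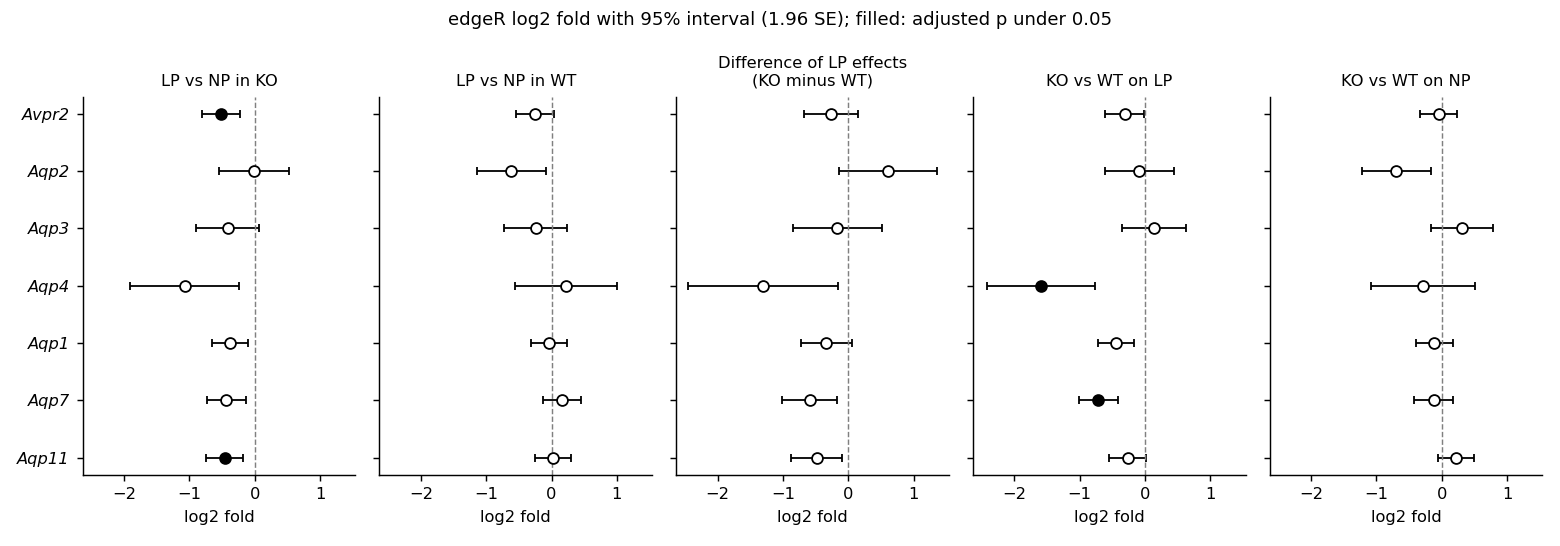
edgeR log2 fold of each gene with its 95% interval in 5 comparisons (LP against NP in KO, in WT, the difference of the 2 effects, and KO against WT on LP and on NP); filled points have an adjusted p under 0.05. Filled points are Avpr2 and Aqp11 for LP in KO kidneys and Aqp4 and Aqp7 for KO on LP, and all 4 are below 0.

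Set against all genes, the counts read as follows. LP in KO kidneys called 2 of the 7 genes lower and 0 higher, beside 7.17% of all genes called in either direction and 3.58% called lower. The median log2 fold of the 7 genes was -0.43, beside 0.032 over all genes. KO on LP called 2 of 7 lower, beside 2.93% of all genes in either direction and 1.59% lower, with medians of -0.31 and 0.019. KO averaged over diets called 1 of 7 (Aqp7), beside 3.77% in either direction and 2.04% lower, with medians of -0.28 and 0.0020. KO on NP called 0 of 7, beside 0.574% of all genes in either direction and 0.231% lower, and LP averaged over genotypes called 0 of 7, beside 0.626% and 0.415%. LP in WT kidneys called 0 of 7, beside 0% of all genes. At an unadjusted p under 0.05 that comparison held 1 of the 7 genes (Aqp2), beside 3.82% of all genes, DESeq2 called 14 genes in all and limma voom 6, and neither called any of the 7. The difference of LP effects called 0 of 7, beside 0% of all genes, and held 3 of 7 (Aqp4, Aqp7 and Aqp11) at an unadjusted p under 0.05, beside 16% of all genes; DESeq2 called 117 genes there and none of the 7. The comparisons of KO LP with KO NP and with WT LP share the KO LP libraries.

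Of the other aquaporins, Aqp6, a channel of intercalated cell vesicles, and Aqp8, found inside cells of several organs, were tested, and neither passed in any comparison. Aqp6 averaged 26.5 ± 3.2 CPM in KO LP, 31.6 ± 2.8 CPM in KO NP, 29.0 ± 7.3 CPM in WT LP and 36.2 ± 8.9 CPM in WT NP mice (SD, n = 6 each). Aqp8 stayed at or under 1.23 CPM in every library. Mip, Aqp5, Aqp9 and Aqp12 are not analysed here.

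Apart from Avpr2 itself, the regulators of AQP2 tested gave no call. A list of 41 genes of vasopressin signalling and AQP2 handling (G protein, adenylyl cyclases, protein kinase A subunits, anchoring proteins, phosphodiesterases, prostaglandin and endothelin receptors, transcription factors, vesicle fusion and ubiquitin ligase genes) had 40 tested, and 0 were called in any of the 7 comparisons. Its median log2 fold was 0.0024 with LP in KO and -0.041 with LP in WT kidneys, and 0.0028 for KO on LP and -0.081 for KO on NP. The smallest p-values with LP in KO kidneys belonged to Elf3, an epithelial transcription factor (log2 fold 0.80, edgeR adjusted p = 0.0548), Ptger4, a prostaglandin E2 receptor (log2 fold 0.70, adjusted p = 0.0595), and Pde4a, a cyclic AMP phosphodiesterase (log2 fold 0.48, adjusted p = 0.0606). With KO on NP they included Ednrb, the endothelin B receptor (log2 fold -0.82, edgeR adjusted p = 0.151).

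Of 14 partners of AQP2 in concentrating urine 12 were tested. KO averaged over diets called 3 of them lower (Kcnj1, Slc5a3 and Hspa1b), beside the 2.04% of all genes given above. KO on LP called 1 lower and 1 higher, beside 2.93% of all genes in either direction. KO on NP called 1 lower, beside 0.231% of all genes lower. LP in KO called 1 of the 12 higher, beside 7.17% of all genes in either direction. Kcnj1, the ROMK potassium channel, averaged 64.0 ± 10.3 CPM in KO LP and 88.5 ± 7.3 CPM in WT LP mice (SD, n = 6 each), and fell by 0.47 on the log2 scale in KO kidneys on LP (edgeR adjusted p = 0.0198). Slc5a3, the sodium-dependent inositol transporter, averaged 86.8 ± 23.1 CPM in KO NP and 171 ± 46 CPM in WT NP mice, and fell by 0.98 in KO kidneys on NP (edgeR adjusted p = 0.0182). Slc38a2, an amino acid transporter that cells raise in hypertonic medium, was higher with LP in KO kidneys (log2 fold 0.62, edgeR adjusted p = 0.0341). Akr1b3, aldose reductase, which makes sorbitol, was higher in KO kidneys on LP (log2 fold 0.76, edgeR adjusted p = 0.0451). Its level was low, at 3.03 ± 0.49 CPM in KO LP and 1.78 ± 0.28 CPM in WT LP mice. Slc5a3 and Akr1b3 are also on the medulla and thin limb list, so the same calls are counted there.

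Of 11 genes of glycerol handling, the substrate of AQP7 and AQP3, all were tested. Gk, glycerol kinase, averaged 400 ± 138 CPM in KO LP and 627 ± 67 CPM in KO NP mice (SD, n = 6 each), and fell by 0.65 on the log2 scale with LP in KO kidneys (edgeR adjusted p = 0.0400). In KO against WT kidneys on LP, where Aqp7 fell, its log2 fold was -0.48 (edgeR adjusted p = 0.144). Akr1b3, named above, is the other gene of the list that passed, and it did so in that comparison. With LP in KO kidneys, 1 of the 11 genes was called, beside 7.17% of all genes in either direction, and 9 had folds above 0 and 2 below. For KO on LP, 1 of the 11 was called, beside 2.93% of all genes, and 6 had folds above 0 and 5 below. The median of the list was 0.27 with LP in KO kidneys and 0.20 for KO on LP, while the glycerol channel Aqp7 had folds below 0 in both.

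The cells that hold these channels were followed by marker lists, as the mean log2(CPM + 1) and the summed CPM over each list. Of 12 principal cell markers 11 were tested. None passed with LP in KO kidneys, where Avpr2 fell, and the list's summed level was 287 to 382 CPM in KO LP and 295 to 410 CPM in KO NP mice, overlapping over most of both ranges. Elf5 was at 0 in at least 1 library. Npnt, nephronectin, was the marker that passed, averaging 43.9 ± 8.0 CPM in KO LP and 67.3 ± 11.8 CPM in WT LP mice (SD, n = 6 each), and it fell by 0.62 on the log2 scale in KO kidneys on LP (edgeR adjusted p = 0.00603). There 1 of 11 markers was called, beside 1.59% of all genes lower, and the list had 4 folds above 0 and 7 below (median -0.038). The list's summed level was 287 to 382 CPM in KO LP and 298 to 431 CPM in WT LP mice, overlapping ranges.

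Proximal tubule and injury markers moved in the comparison in which Aqp11 fell. With LP in KO kidneys, 2 of 12 markers of proximal segments 1 and 2 were called lower, Slc34a1, a phosphate transporter (log2 fold -0.68, edgeR adjusted p = 0.0371), and Slc5a2, the glucose transporter SGLT2 (log2 fold -0.69, adjusted p = 0.0420). The list's mean log2(CPM + 1) was 8.08 to 9.11 in KO LP and 9.11 to 9.39 in KO NP mice. Of 7 injured tubule markers 5 were called higher (Krt20, Lcn2, Sox9, Spp1 and Clu), with summed levels of 1110 to 3493 CPM in KO LP and 586 to 1030 CPM in KO NP mice. Of 14 immune markers 13 were tested and 4 called higher (C1qa, Cd3e, Cd74 and H2-Ab1), with summed levels of 781 to 2301 CPM in KO LP and 542 to 748 CPM in KO NP mice. Cd79a, of the immune list, was at 0 in at least 1 library. Further calls in this comparison were 1 of 7 thick ascending limb markers (Sostdc1, lower), 1 of 7 podocyte markers (Wt1, higher) and 1 of 2 adrenal markers tested (Akr1b7, higher). Over all genes, 7.17% were called in either direction. The thick limb list had 3 folds above 0 and 4 below, the podocyte list 4 above and 3 below, and the adrenal list 1 each way. Akr1b7 ranged from 1.59 to 14.8 CPM in KO LP mice and from 0.966 to 2.69 CPM in KO NP mice. Every marker of the injured and the S1 and S2 lists was detected in every library, and their part in the Aqp11 decrease was not tested.

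Where Aqp4 and Aqp7 fell, in KO against WT kidneys on LP, 2 of 10 markers of proximal segment 3 were called lower. These were Slc27a2, a fatty acid transport and activation gene (log2 fold -0.52, edgeR adjusted p = 0.0478), and Slc22a13, a urate transporter (log2 fold -1.05, adjusted p = 0.0116). The list had 7 folds below 0 and 3 above 0, with a median log2 fold of -0.37. Its summed level was 1348 to 2626 CPM in KO LP and 2039 to 3290 CPM in WT LP mice, overlapping ranges. Other lists moved in the same comparison. The medulla and thin limb list had 1 of 8 called lower (Cryab) and 1 called higher (Akr1b3), with 4 folds above and 4 below 0. Its summed level was 170 to 263 CPM in KO LP and 236 to 395 CPM in WT LP mice. All 8 markers of the connecting and the distal convoluted tubule had folds below 0 (median -0.45), and 2 were called (Klk1 and Calb1). The summed level of this list was 1019 to 1544 CPM in KO LP and 1330 to 2681 CPM in WT LP mice. Klk1, a kallikrein gene near Fgf21, averaged 433 ± 95 CPM in KO LP and 981 ± 284 CPM in WT LP mice (SD, n = 6 each). Whether its position near the knocked-out gene has a part in this was not tested. All 9 endothelial markers had folds below 0 and 1 was called (Eng), with summed levels of 418 to 565 CPM in KO LP and 484 to 601 CPM in WT LP mice. The thick ascending limb list had 1 of 7 called lower (Sostdc1), and the list of proximal segments 1 and 2 had 1 of 12 (Slc7a7). The 7 injured tubule markers all had folds above 0 with 0 called, and summed levels of 1110 to 3493 CPM in KO LP and 638 to 2949 CPM in WT LP mice. No marker with a row in the lists of segment 3, medulla, distal tubule, thick limb, endothelium or injury was at 0 in any library. The part of these lists in the Aqp4 and Aqp7 decreases was not tested. Adipocytes also express Aqp7. Of 8 adipocyte markers 5 had a row, and 3 of these (Adipoq, Cidec and Cfd) were at 0 in at least 1 library. The summed level of the 5 was 327 to 818 CPM in KO LP and 455 to 944 CPM in WT LP mice. This sum rested on Lpl (means 370 and 524 CPM) and Fabp4 (176 and 127 CPM). Adipoq, Cidec and Cfd averaged 0.024, 0.354 and 0.079 CPM in KO LP and 0.021, 0.143 and 0.131 CPM in WT LP mice.

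Between mice of the same group, some of the 7 genes went up and down with these lists. Pearson's r was taken over 24 libraries after subtracting each group's mean, with a two-sided permutation test within groups and p-values adjusted over all 105 pairs of a gene and a marker list. Of these pairs, 9 passed an adjusted p of 0.05. All values share library scaling and depth.

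Aqp11 had the strongest relations. Its r with the injured tubule list was -0.85 (Spearman's rho -0.82, adjusted permutation p = 0.0021) and -0.75 without the 2 libraries farthest in the marker level. With the immune list r was -0.84 (rho -0.69, adjusted permutation p = 0.00472), and -0.70 without the 2 farthest. With the markers of proximal segments 1 and 2 r was 0.74 (rho 0.79, adjusted permutation p = 0.0292), and 0.86 without the 2 farthest. The relation was present in WT mice too: WT LP mouse 3 and WT NP mouse 1 had the lowest Aqp11 levels of their groups, 48.0 and 47.2 CPM, and the highest injured tubule levels of their groups. It was not seen within KO NP mice. There mouse 1 had the lowest injured tubule level, 4.35 as mean log2(CPM + 1), and 77.1 CPM of Aqp11. KO NP mouse 5 had the highest Aqp11 level of that group, 86.4 CPM, at an injured tubule level of 5.14. With the medulla and thin limb list Aqp11 had r of -0.57 (rho -0.47, adjusted permutation p = 0.0325), and -0.66 without the 2 farthest.

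Aqp1 ran opposite to the podocyte list, with r of -0.72 (rho -0.69, adjusted permutation p = 0.0206), and -0.66 without the 2 farthest libraries. It also ran opposite to the immune list, with r of -0.67 (rho -0.59, adjusted permutation p = 0.0325), and -0.48 without them. Aqp4 followed the markers of proximal segment 3 with r of 0.62 (rho 0.66, adjusted permutation p = 0.0325), and 0.65 without the 2 farthest. Aqp4 followed the thick ascending limb list as closely, with r of 0.62 (rho 0.70, adjusted permutation p = 0.0291), and 0.62 without them. Its r with the principal cell list was 0.32 (rho 0.45, adjusted permutation p = 0.283), and 0.30 without them. Avpr2 followed the principal cell list with r of 0.59 (rho 0.67, adjusted permutation p = 0.0325), and 0.64 without the 2 farthest. Aqp2, Aqp3 and Aqp7 had no list past the threshold. When each library was left out in turn, the pairs of Aqp11 with the injured and immune lists and of Aqp1 with the podocyte list kept an adjusted p under 0.05 in all 24 cases, and the other 6 pairs lost it in 3 to 11 cases.

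**Figure D3:**
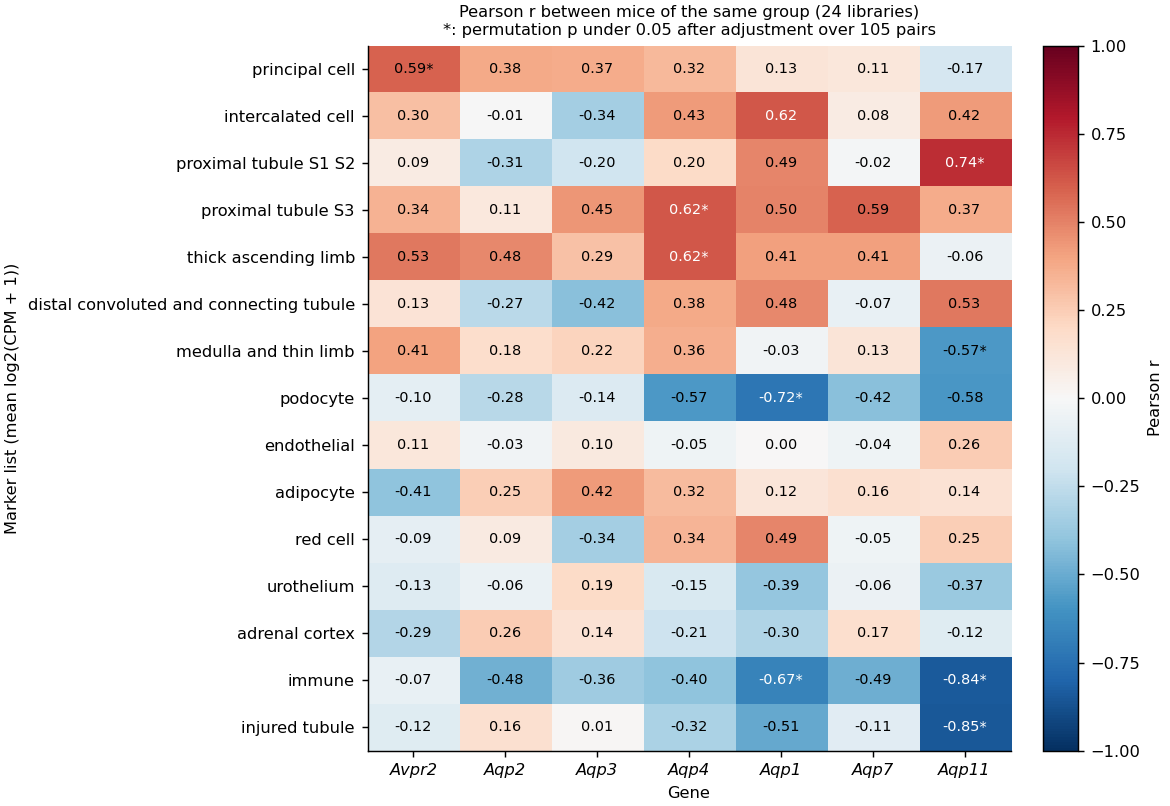
Pearson's r between each gene (columns) and the mean level of each marker list (rows) over 24 libraries after subtracting group means; colour runs from -1 to 1, and an asterisk marks an adjusted permutation p under 0.05. Aqp11 is negative with injured tubule and immune markers, and the asterisk of Avpr2 is at the principal cell list.

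**Figure D4:**
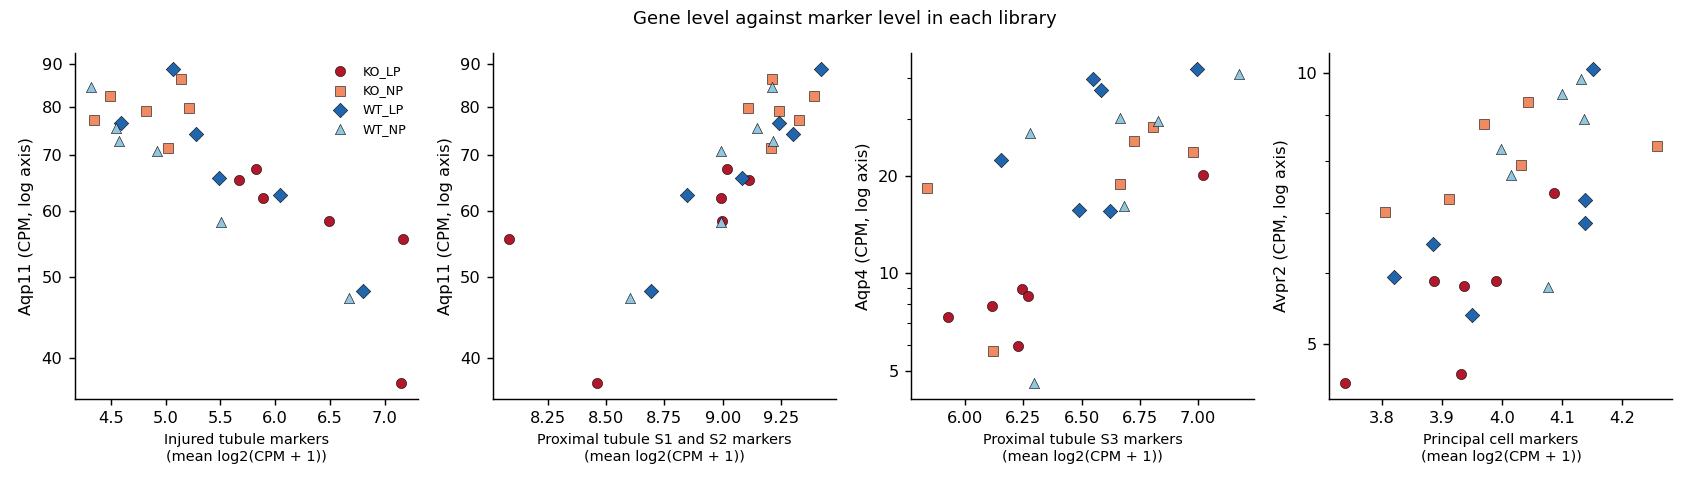
CPM (log axis) against the mean log2(CPM + 1) of a marker list in each of the 24 libraries, coloured by group: Aqp11 with injured tubule and with proximal S1 and S2 markers, Aqp4 with S3 markers and Avpr2 with principal cell markers. Aqp11 declines along the injured tubule axis in KO LP, WT LP and WT NP mice, and not within KO NP mice. Avpr2 of KO LP mice is at 4.53 to 7.36 CPM over principal cell levels of 3.74 to 4.09.

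Among themselves the 7 genes formed 21 pairs, and 0 passed an adjusted p of 0.05 in the same test. The closest were Aqp1 and Aqp11 (r 0.62, rho 0.56, adjusted permutation p = 0.0519, r 0.56 without the 2 libraries farthest in Aqp1) and Aqp1 and Aqp4 (r 0.60, rho 0.52, adjusted permutation p = 0.0519, r 0.39 without them). Avpr2 and Aqp2, receptor and target channel of the same cell, had r of 0.19 (rho 0.22, adjusted permutation p = 0.695), and 0.38 without the 2 farthest. No KO or WT comparison enters these values, since group means were subtracted.

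The genes that ran most closely with each of the 7 between mice of a group were sought among 10089 genes whose mean reached 5 CPM or more, by Pearson's r over the 24 libraries and as a description only. Aqp11 ran with Aspa, aspartoacylase (r 0.96), Gcdh, glutaryl-CoA dehydrogenase (0.95), and Ogdh, a subunit of the oxoglutarate dehydrogenase complex (0.93). Aqp1 ran with Slc3a1, a subunit of the cystine transporter of the proximal tubule (r 0.87), Phb and Mfn2, both mitochondrial (0.87 and 0.85). Aqp4 ran with Slc39a8, a zinc transporter that is on the medulla and thin limb list (r 0.86), Rap1gap (0.80) and C8a (0.78). Aqp7 ran with Napsa, an aspartic protease (r 0.75), Macrod1 (0.74) and Ppp2r5a (0.73). Aqp3 ran with Tmem38b (r 0.88), Inafm2 (0.87) and Acad11 (0.86), Aqp2 with Bicdl1 (0.81), Mrps6 (0.80) and Efhd1 (0.80), and Avpr2 with Ss18l1 (0.77), Nlk (0.72) and Slc39a13 (0.71). The 24 libraries share scaling and tissue make-up, and the highest of 10089 values is high by selection.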

How the data were processed

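RNA of kidney cortex from 24 mice was read with Lexogen QuantSeq (50-base forward reads), per the labels' protocols. Whole-number counts per gene were deposited by the authors, with build GRCm38 per the submitters' processing notes; the sources used here name no aligner or counter and do not say whether strand was used. A signal table deposited by the authors holds these counts divided by size factors, and the submitters' processing notes name DESeq2 1.22.2. Symbols came from the files for 14208 of 16921 genes and from GENCODE M21 for 2668, while 45 had none. Depth was 8469102 to 21063652 counts. No 2 replicates agreed within sampling noise (chi-square per degree of freedom 5.98 to 69.5).

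edgeR 4.0.16 (R 4.3.3) was run on all libraries in 1 fit with 4 group means: TMM factors, 1756 low genes removed by filterByExpr, a robust quasi-likelihood fit, and Benjamini-Hochberg adjustment over 15165 genes for each of 7 comparisons, with adjusted p under 0.05 as the threshold. The p-values measure the spread between mice. Intervals are 1.96 SE. Relations between mice used log2 CPM less group means and 100000 permutations within groups. Promoters came from RefSeq (GRCm38.p6). Alternatives were DESeq2 1.42.0, limma 3.58.1 (voom with quality weights, or log2 of the normalized values + 1), DESeq2 size factors, other low-count filters, only the libraries compared, and leaving out each library. The edgeR fit, for LP against NP in KO alone, and the permutation test were checked on simulated data. The other comparisons and the alternative tools were not checked in this way.

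The 7 genes and all lists were chosen with earlier results of these data known. The rule let the text name all 7 genes, called genes of a list or else up to 3 with the smallest p, and for each gene the 3 with the highest r; not every called list gene is named.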

Additional observations from a re-analysis of the deposited data

Results flagged for a closer look

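In each gene and group, the highest and lowest mouse were compared with the other 5 by Dixon's test at 95% (28 groups of 6), which marks about 1 in 20 groups by chance. It marked 2 values. Aqp4 in KO LP mouse 1 was 20.1 CPM, above the other KO LP mice at 5.95 to 8.94 CPM. This library was the shallowest, at 8469102 counts, and had the highest proximal segment 3 marker level of its group, 7.02 as mean log2(CPM + 1). Aqp7 in WT LP mouse 4 was 16.0 CPM, above the other WT LP mice at 11.8 to 13.2 CPM.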

How the results depend on the processing

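Counts of the 7 genes called moved with the tool and with single libraries. For LP in KO kidneys the count of 2 became 3 with DESeq2 and with limma voom (with Aqp7), 1 without a low-count filter and 0 to 5 with 1 library left out; the 5, without KO LP mouse 1, were Aqp1, Aqp4, Aqp7, Aqp11 and Avpr2. For KO on LP, 2 became 3 with DESeq2 (with Aqp1), 1 (Aqp7) with limma voom, with limma on normalized values and without a low-count filter, and 1 to 3 with 1 library left out. For LP averaged over genotypes, 0 became 1 (Avpr2) with DESeq2 and with voom, and 0 to 1 with 1 library left out. For KO averaged over diets, 1 became 2 with DESeq2 (Aqp4 and Aqp7), 3 with voom (with Aqp1) and 1 to 3 with 1 library left out. The count of 0 pairs of the 7 genes past an adjusted p of 0.05 became 0 to 3 with 1 library left out. The Aqp7 decrease passed in all 31 settings for KO on LP and in all 30 averaged over diets; Avpr2 with LP in KO kept its call in 22 of 31 settings, Aqp11 in 12 of 31 and Aqp4 for KO on LP in 13 of 31. The cause was not tested.

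Reversals concerned values near 0 that were not called. Aqp2 with LP in KO was 0.00034 with a 5 CPM filter and -0.32 to 0.11 with 1 library left out, Aqp11 with LP in WT was -0.044 with voom and -0.063 to 0.11, and Aqp3 for KO on LP was -0.12 with voom and -0.094 to 0.27. With 1 library left out, Aqp1 with LP in WT was -0.12 to 0.066, Aqp2 for KO on LP -0.40 to 0.073, Avpr2 for KO on NP -0.13 to 0.0050 and Aqp11 for KO averaged over diets -0.066 to 0.027. The r of Aqp1 and Aqp3 was then -0.15 to 0.049, of Aqp2 and Aqp11 -0.051 to 0.17, of Aqp3 and Avpr2 -0.22 to 0.077, of Aqp4 and Aqp11 -0.086 to 0.35, of Aqp7 and Avpr2 -0.10 to 0.19, and of Aqp11 and Avpr2 -0.035 to 0.14. Over all genes, calls for LP in KO were 1087, 1839 with DESeq2, 1693 with voom and 122 (without KO NP mouse 5) to 2006 (without KO LP mouse 1); for KO on LP 445, 910, 877 and 161 with the compared libraries alone; for KO on NP 87, 246 and 140; for LP averaged over genotypes 95, 297 and 442; and for KO averaged over diets 571, 866 and 1020.

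No paired analysis was possible because the labels carry no replicate numbers shared between groups. Avpr2 rests on 60 to 193 counts and Aqp7 on 81 to 274 counts per library, which limits small differences in both.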

Other observations

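Aqp8, a channel found inside cells of several organs, was nearly absent from WT LP kidneys, at 0 to 3 counts per library, against 1 to 20 counts in WT NP kidneys. KO kidneys had 2 to 12 counts on LP and 2 to 16 counts on NP. No comparison of Aqp8 passed adjustment by edgeR's quasi-likelihood test. The smallest adjusted p was 0.0646, for KO against WT on LP, where means were 0.512 CPM in KO LP and 0.0626 CPM in WT LP mice. At these counts a few reads set the values.

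Intercalated cell markers and Aqp1 also ran together between mice of a group, with r of 0.62 (Spearman's rho 0.63, adjusted permutation p = 0.051, over 105 pairs) and 0.53 without the 2 libraries farthest in the marker level. For Aqp7 and the proximal segment 3 list r was 0.59 (rho 0.53, adjusted permutation p = 0.0625), and 0.44 without the 2 farthest.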
